A study of Mus musculus with 6 samples.

Results

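Fcγ receptors, the adaptors that carry their signal and the kinase that reads it were compared between microglia of mPGC-1α and PGC-1αf/f mice. The 8 genes were taken by name and function, with earlier results of these data known: Fcgr1, Fcgr2b, Fcgr3 and Fcgr4, the IgG receptors; Fcgrt, the neonatal Fc receptor; Fcer1g and Tyrobp, the adaptors; and Syk, the kinase. They are 8 of the 23462 genes that the array's probes could be matched to, and all 8 were among the 13100 genes tested. Microglia came from mice labelled male and aged 10 weeks, and were purified by magnetic selection for the surface receptor P2RY12. Per the study's methods, both groups carry a loxP-flanked PGC-1α allele with eGFP, which drives overexpression once Cre has acted. In mPGC-1α mice a tamoxifen-dependent Cre inserted into the Cx3cr1 locus, which is active in microglia and in other mononuclear phagocytes, switches it on; PGC-1αf/f littermates without Cre were the controls. The methods describe tamoxifen dosing before experiments for the mice in general and do not say whether the control mice of the arrays received it. Each group had 3 arrays, and the labels do not say whether an array holds 1 animal or a pool. The p-values measure only the spread between these arrays. The comparison asks whether PGC-1α overexpression, in the absence of injury, changes what microglia transcribe.

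Microglia sense antibody through Fcγ receptors. The activating receptors FcγRI, FcγRIII and FcγRIV have no signalling tail of their own and depend on the Fcer1g product, the FcRγ chain, for surface expression and signalling. When the receptors are clustered by IgG, Src family kinases phosphorylate the paired tyrosines of the adaptor's immunoreceptor tyrosine-based activation motif (ITAM), and Syk docks there and starts phagocytosis and cytokine release. FcγRIIB, the product of Fcgr2b, carries an inhibitory motif (ITIM) in its own tail and recruits the phosphatase SHIP1. Tyrobp encodes DAP12, the ITAM adaptor of TREM2 and related receptors. Fcgrt encodes the heavy chain of FcRn, which rescues IgG from lysosomal degradation and uses no ITAM.

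In the RefSeq annotation of the build GRCm38.p6, Fcgr2b, Fcgr4, Fcgr3 and Fcer1g lie in that order on chromosome 1, whereas Fcgr1 is on chromosome 3, Fcgrt on chromosome 7 and Syk on chromosome 13. The 120 bases before the annotated start of the 4 Fcγ receptor genes are shown so that the activating genes can be set beside the inhibitory one. Capitals mark matches on either strand to the letters GAGGAA (core of the site of PU.1, the master regulator of myeloid genes), TTCNNNGAA (GAS element, bound by STAT factors) or GAAANNGAA (core of interferon response elements). Sequences are from RefSeq, GRCm38.p6, on the strand of the gene: Fcgr1 at chr3:96293970-96294089 (minus strand), Fcgr2b at chr1:170976072-170976191 (minus strand), Fcgr3 at chr1:171059404-171059523 (minus strand) and Fcgr4 at chr1:171018806-171018925 (plus strand).
Fcgr1: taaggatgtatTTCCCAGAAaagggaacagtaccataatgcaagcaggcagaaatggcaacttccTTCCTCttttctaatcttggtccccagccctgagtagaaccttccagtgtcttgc
Fcgr2b: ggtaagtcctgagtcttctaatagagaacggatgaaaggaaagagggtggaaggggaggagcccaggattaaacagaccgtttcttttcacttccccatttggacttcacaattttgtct
Fcgr3: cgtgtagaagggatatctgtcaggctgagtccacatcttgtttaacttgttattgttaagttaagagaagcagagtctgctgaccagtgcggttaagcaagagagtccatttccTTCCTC
Fcgr4: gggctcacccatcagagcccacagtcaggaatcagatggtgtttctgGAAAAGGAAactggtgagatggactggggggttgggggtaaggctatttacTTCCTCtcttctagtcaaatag

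The PU.1 core was present in the stretches of Fcgr1, Fcgr3 and Fcgr4, the activating receptors, and not in that of Fcgr2b. Counting backwards with -1 as the base before the start, it lay at -55 to -50 in Fcgr1, at -6 to -1 in Fcgr3 and at -22 to -17 in Fcgr4. Counted from a second annotated start of Fcgr3, the match lay at -15 to -10. Fcgr1 also held a GAS match at -109 to -101 and Fcgr4 an interferon core match at -73 to -65. Windows of 250 bases before to 50 after the start were on hand for 7 of the 8 genes, Tyrobp being the one without. In these windows GAGGAA occurred in 4 genes (Fcgr1, Fcgr3, Fcgr4 and, in the second of its 2 windows, Syk). Over all 27025 genes with a window, 31.3% held GAGGAA in at least 1 of their windows, 9.55% held TTCNNNGAA and 9.76% held GAAANNGAA. TCAAGGTCA, the half-site of the estrogen-related receptors through which PGC-1α often acts, occurred in none of the 7 genes and in 0.466% of all genes with a window. These are matches of letters and say nothing about binding.

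Across the series, 27025 to 30272 of 59305 spots per array were well above background and none was saturated. The overexpressed gene, Ppargc1a, was measured by 2 probes, with log2 fold changes of 0.80 (SE 0.35, limma adjusted p = 0.306) and 0.59 (SE 0.38, limma adjusted p = 0.445); without replicate 3 of PGC-1αf/f they were 0.44 and 0.26. The microglial markers P2ry12, Tmem119 and Csf1r were well above background on all 6 arrays, whereas of 4 B cell genes 3 were not on any array and Ms4a1 was on 2, both mPGC-1α. Replicate 3 of PGC-1αf/f correlated least with the other arrays (mean r = 0.928, against 0.962 to 0.972 for the rest). Replicate 3 of mPGC-1α had 0 of 4 Y-linked genes above background, against 4 on each other array, although its label says male. All arrays lay on 1 slide, PGC-1αf/f in its first row and mPGC-1α in its second, so slide row and group cannot be told apart.

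None of the 8 genes differed between the groups after adjustment over all probes. The counts past the threshold were 0 higher and 0 lower, where 0.0611% of all genes tested passed it. At an unadjusted p under 0.05 the counts were also 0 and 0, beside 7.92% of all genes higher and 5.84% lower. In 0 of the 8 were the groups without overlap in either direction, while over all genes with 6 values 12.2% were higher and 10.8% lower without overlap. The median estimate of the 8 genes was 0.091 on the log2 scale, beside 0.023 for all genes. With 1 array left out it ran from -0.016 (without mPGC-1α replicate 3) to 0.17 (without PGC-1αf/f replicate 1). The estimate was above 0 for 7 of the 8 genes, beside 53.2% of all genes. That 7 fell to 4 without replicate 3 of mPGC-1α and to 3 when replicate 3 of both groups was left out. It was also 3 when arrays were scaled to their median, which shifts all genes alike: the median of the 8 minus that of all genes was 0.070 there. Levels below are log2 signals relative to each array's 75th percentile, and since probes differ in brightness each gene is compared only with itself. In bulk samples of sorted cells, fewer cells of a type and less RNA per cell cannot be told apart.

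**Figure D1:**
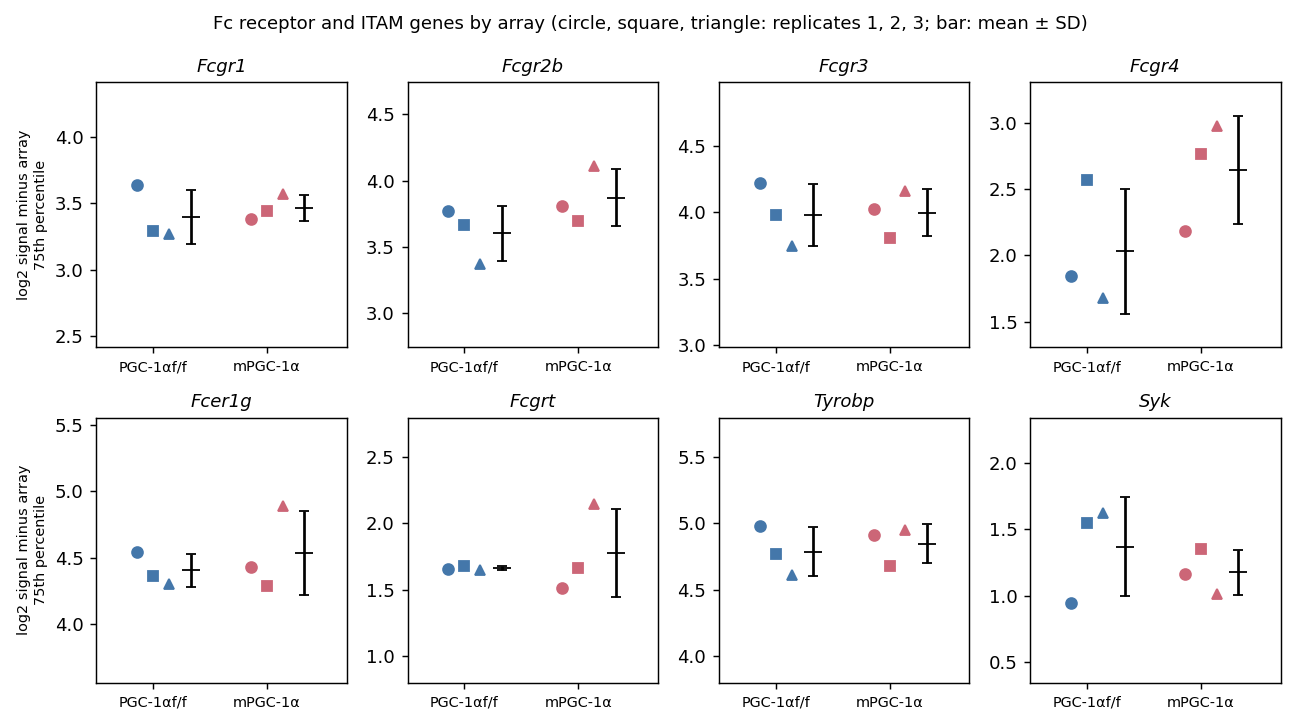
Log2 signal relative to the array's 75th percentile for each of the 8 genes, one panel a gene, with 3 arrays per group (circle, square and triangle are replicates 1, 2 and 3) and the mean ± SD beside them; every panel spans the same log2 range around its own centre. The groups overlap in all 8 panels, Fcgr4 has the widest spread, and the replicate 3 triangle of mPGC-1α is the top point for Fcgr2b, Fcgr4, Fcer1g and Fcgrt.

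Among the activating receptors, Fcgr4 had the largest estimate of the 8. It encodes FcγRIV, the receptor for IgG2a and IgG2b. Its level was 1.85, 2.57 and 1.68 in PGC-1αf/f replicates 1 to 3 and 2.19, 2.77 and 2.98 in mPGC-1α replicates 1 to 3. The second PGC-1αf/f array exceeded the first mPGC-1α array, so the groups overlapped, although the other mPGC-1α arrays were above every control. The log2 fold change was 0.61 (SE 0.30), a 1.53-fold difference with a 95% interval of 0.939 to 2.49, and the limma adjusted p was 0.344. The 2 slide columns that held an array of each group gave differences of 0.34 and 0.20. The unadjusted p was 0.078, and it became 0.0148 without PGC-1αf/f replicate 2 (log2 fold change 0.88) and 0.029 without mPGC-1α replicate 1 (0.84). With replicate 3 of both groups left out the log2 fold change was 0.27. The estimate was above 0 in all 18 alternatives and past the adjusted threshold in 0 of them. Fcgr4 also had the largest residual SD of the 8, 0.442, beside a median of 0.208 over all genes.

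Fcgr1 encodes FcγRI, the high-affinity receptor. Its level was 3.64, 3.29 and 3.27 in PGC-1αf/f and 3.38, 3.44 and 3.57 in mPGC-1α. All mPGC-1α arrays lay inside the range of the controls. The estimate of 0.068 (SE 0.15) on the log2 scale corresponded to 1.05-fold, with an interval of 0.816 to 1.35 and a limma adjusted p of 0.842. Fcgr3 encodes FcγRIII, the low-affinity activating receptor for IgG1 immune complexes. Its level was 4.22, 3.98 and 3.75 in PGC-1αf/f and 4.03, 3.81 and 4.16 in mPGC-1α. Here too the mPGC-1α arrays lay inside the control range. The difference of 0.017 (SE 0.17) on the log2 scale had the interval 0.761 to 1.35-fold and a limma adjusted p of 0.968.

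Fcgr2b, the inhibitory receptor, was measured by 2 probes. The brighter gave 3.77, 3.67 and 3.37 in PGC-1αf/f and 3.81, 3.69 and 4.11 in mPGC-1α. The second mPGC-1α array lay below the first control array and the groups overlapped. The log2 fold change was 0.27 (SE 0.17), or 1.20-fold with an interval of 0.905 to 1.60, and the limma adjusted p was 0.452. The other probe gave 2.95, 2.83 and 2.55 in PGC-1αf/f and, on the 2 mPGC-1α arrays with a value, 2.45 and 3.48. Its fit over 5 arrays gave a log2 fold change of 0.19 (SE 0.32, limma adjusted p = 0.792), and its mPGC-1α arrays lay on either side of the controls. Without replicate 3 of both groups the brighter probe's log2 fold change was 0.033. The slide columns with an array of each group gave 0.039 and 0.026.

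The balance of activating to inhibitory receptors, a quantity that sets the threshold for IgG responses, was taken per array as the mean change of Fcgr1, Fcgr3 and Fcgr4 minus the change of Fcgr2b, each relative to the mean of PGC-1αf/f. It was -0.068, 0.077 and -0.0086 in PGC-1αf/f and -0.14, 0.11 and -0.075 in mPGC-1α, on the log2 scale. The mPGC-1α mean was -0.036 ± 0.13 (SD, n = 3), less than the spread between arrays, and the controls had an SD of 0.073. With 1 array left out, the difference ran from -0.11 (without mPGC-1α replicate 2) to 0.017 (without mPGC-1α replicate 1). An exact permutation test of 3 arrays against 3 cannot give a p below 0.1, so none is given. The change relative to Fcgr2b was -0.20 for Fcgr1, -0.25 for Fcgr3 and 0.34 for Fcgr4, so the mean balances receptors with estimates on either side.

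Both adaptors had estimates close to 0. Fcer1g, the FcRγ chain, gave 4.54, 4.36 and 4.30 in PGC-1αf/f and 4.43, 4.29 and 4.89 in mPGC-1α. Only the third mPGC-1α array was above the control range. Its log2 fold change was 0.13 (SE 0.19, interval 0.805 to 1.49-fold, limma adjusted p = 0.739), and it was -0.044 without that array. Tyrobp, which encodes DAP12, gave 4.98, 4.76 and 4.61 in PGC-1αf/f and 4.91, 4.68 and 4.95 in mPGC-1α. All mPGC-1α values lay inside the control range. On the log2 scale the difference was 0.062 (SE 0.15), or 1.04-fold with an interval of 0.81 to 1.34, and the limma adjusted p was 0.86.

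Syk was the one gene of the 8 with an estimate below 0. The brighter of its 2 probes gave 0.94, 1.55 and 1.62 in PGC-1αf/f and 1.16, 1.35 and 1.02 in mPGC-1α. All mPGC-1α arrays lay inside the control range, in which the first array was the low one. The estimate was -0.19 (SE 0.21) on the log2 scale, or 0.874-fold with an interval of 0.616 to 1.24, and the limma adjusted p was 0.66. The dimmer probe gave -2.95, -2.40 and -2.46 in PGC-1αf/f and -2.71, -2.58 and -3.16 in mPGC-1α, a log2 fold change of -0.21 (SE 0.22, limma adjusted p = 0.639). The probes thus gave like estimates, and for the brighter probe the shared slide columns gave 0.22 and -0.20, of opposite sign. Without PGC-1αf/f replicate 1 the brighter probe's log2 fold change was -0.41 with an unadjusted p of 0.045.

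Fcgrt, which encodes the FcRn heavy chain, gave 1.66, 1.68 and 1.65 in PGC-1αf/f and 1.52, 1.66 and 2.15 in mPGC-1α. The controls had an SD of 0.017, and the third mPGC-1α array stood above them while the first stood below. A log2 fold change of 0.11 was estimated (SE 0.19, interval 0.798 to 1.47-fold, limma adjusted p = 0.774), and it was -0.073 without the third mPGC-1α array.

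**Figure D2:**
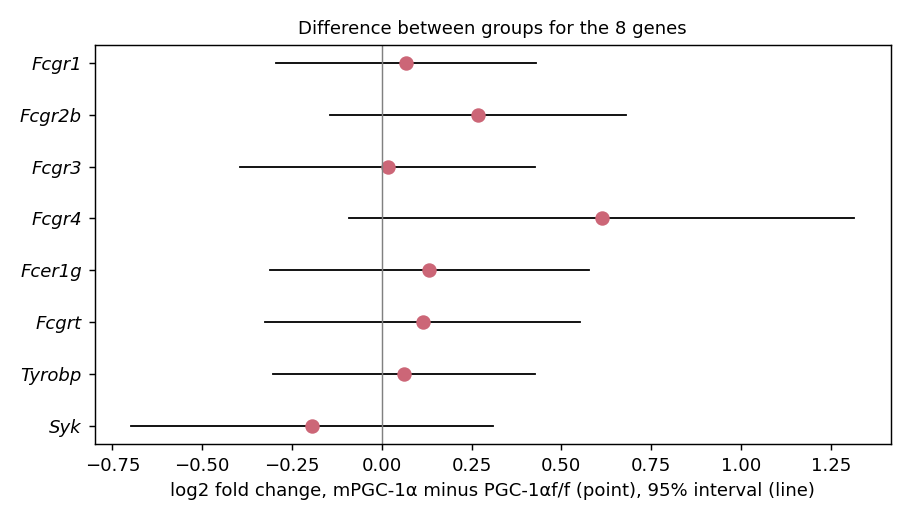
Log2 fold change of mPGC-1α over PGC-1αf/f for each gene (point) with its 95% interval from limma (line), 3 arrays per group. Every interval crosses 0; that of Fcgr4 is the widest and reaches furthest to the right, to 2.49-fold.

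The intervals bound how large a difference these arrays leave room for. Outside Fcgr4, they ran from 0.616-fold (Syk, lower end) to 1.60-fold (Fcgr2b, upper end) for the probe that represents each gene. The other probe of Fcgr2b, with 5 arrays, had a wider interval of 0.656 to 1.97-fold, and that of Syk one of 0.601 to 1.24-fold. For Fcgr1, Fcgr3 and Tyrobp they stayed between 0.761 and 1.35-fold. A p above the threshold does not show that the levels were the same, and differences inside these limits could not be resolved with 3 arrays per group.

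**Figure D3:**
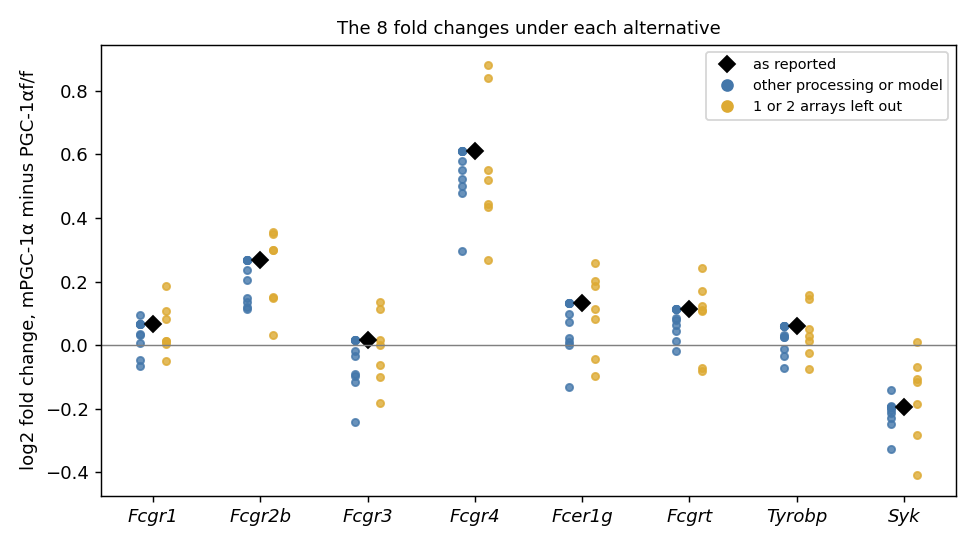
Log2 fold change of each gene as reported (black diamond), under other normalizations, filters or models (blue) and with 1 or 2 arrays left out (yellow). Fcgr4 and Fcgr2b stay above 0 throughout, Syk is above 0 at one point (0.012, without replicate 3 of both groups), and the other 5 genes have points on both sides of 0.

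The 8 genes did not follow one array profile. The highest array was mPGC-1α replicate 3 for 4 of them (Fcgr2b, Fcgr4, Fcer1g and Fcgrt), PGC-1αf/f replicate 1 for 3 (Fcgr1, Fcgr3 and Tyrobp) and PGC-1αf/f replicate 3 for Syk. The lowest array was PGC-1αf/f replicate 3 for 5 of them. Fcgr3 and Tyrobp were close to each other over the 6 arrays, with a root mean square difference of 0.050 between their centred log2 profiles, as against 0.14 between Fcer1g and Tyrobp. By that measure the tested genes nearest to Tyrobp were Arpc5l (0.0186), Ly96 (0.0241) and Set (0.0265). Those nearest to Fcer1g were Haus1 (0.0534), Gcsh (0.0620) and Borcs7 (0.0623). These likenesses are over 6 arrays that share their slide and are descriptive.

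The rest of the pathway was covered by 4 lists with 84 genes, of which 75 were tested. At the adjusted threshold, 0 rose and 0 fell; the smallest limma adjusted p was 0.119, for Cd300lf. Of the 71 well above background on all 6 arrays, 8 had a higher and 7 a lower level at an unadjusted p under 0.05, while over all genes tested the shares were 7.92% and 5.84%. Their estimates lay above 0 for 31 and below 0 for 40, with a median of -0.053. The other 4 (Clec4e, Cd300lb, Vav3 and Fcrla) entered the test only through mPGC-1α, and their estimates were above 0.

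**Figure D4:**
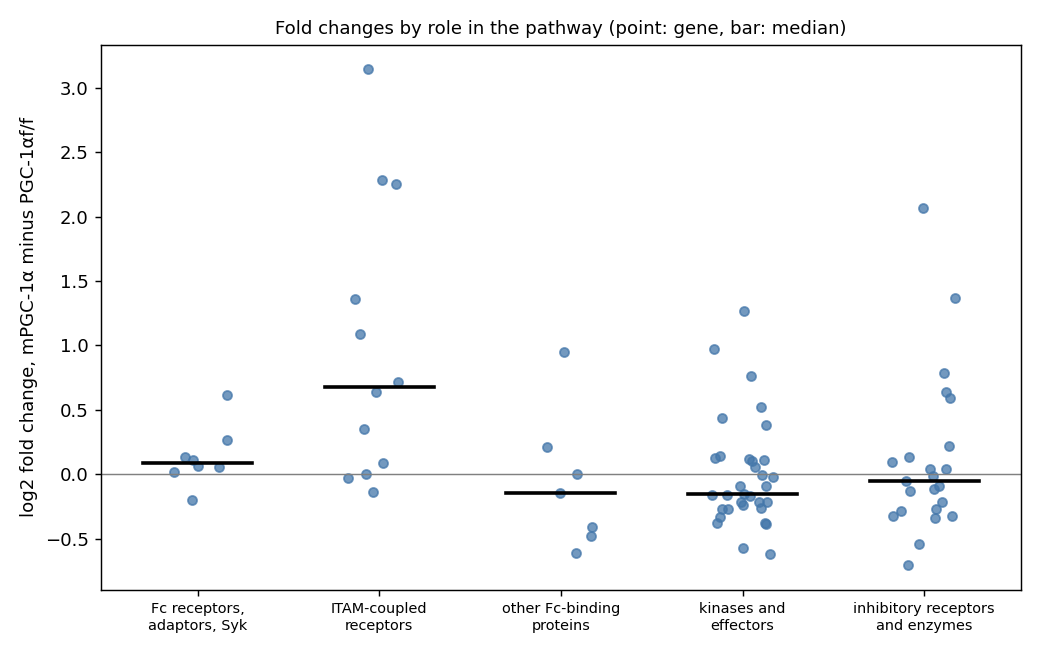
Log2 fold change of mPGC-1α over PGC-1αf/f for the 8 genes and for the tested genes of 4 lists (points; bars are medians): 12 genes of the ITAM-coupled receptor list, 7 other Fc-binding proteins, 33 kinases and effectors, and 23 inhibitory receptors and enzymes. The coupled receptors have a median of 0.68, which includes Clec4e, the top point, and Cd300lb, neither well above background on all control arrays; the other medians run from -0.15 to 0.091.

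In the list of receptors coupled to ITAM signalling, which also holds Hcst, the gene of the adaptor DAP10, 0 genes passed the threshold. Of 14 listed, 12 were tested, but Clec4e and Cd300lb entered the test only through mPGC-1α, the group where they were higher. Of the 10 genes well above background on all 6 arrays, 8 had an estimate above 0, beside 53.2% of all genes, and 3, Hcst among them, were higher without overlap, beside 12.2% of all genes. Their median log2 fold change was 0.50. It was 0.68 over all 12, and 0.39 over the 12 without the third control array. Clec4e, which encodes Mincle, a receptor for dead cells and mycobacterial glycolipid, gave -3.74, -1.78 and -6.33 in PGC-1αf/f and -1.30, -1.36 and 0.24 in mPGC-1α. It was well above background on 1 PGC-1αf/f and 3 mPGC-1α arrays, so its fitted log2 fold change of 3.14 (SE 1.08, limma adjusted p = 0.246) rests in part on control signals that were not well above background. Clec4d, its partner lectin MCL, gave 0.21, 0.86 and -3.22 in PGC-1αf/f and 1.36, 1.13 and 2.21 in mPGC-1α, a log2 fold change of 2.28 (SE 1.00, limma adjusted p = 0.310). In both lectins all mPGC-1α arrays lay above all controls, and the third control array was far below the others. Trem3, a DAP12-coupled receptor, gave 0.34, 1.69 and -4.12 in PGC-1αf/f and 1.38, 1.79 and 1.51 in mPGC-1α (log2 fold change 2.25, SE 1.34, limma adjusted p = 0.417). Its groups overlapped. Chosen after their values were seen, Sirpb1a (1.36, SE 0.40, limma adjusted p = 0.201) and Clec4n, which encodes Dectin-2 (0.72, SE 0.29, limma adjusted p = 0.283), complete the 3 receptors with Clec4e at an unadjusted p under 0.05. Over all genes, 7.92% were higher at that p. The count of 3 became 6 without PGC-1αf/f replicate 2 and 1 without mPGC-1α replicate 3. Sirpb1a was at 0.86 without the third control array.

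The 3 lowest estimates of the list were those of Trem2, Siglech and Clec5a. Trem2, the lipid-sensing DAP12 partner, gave 4.78, 4.48 and 4.26 in PGC-1αf/f and 4.40, 4.36 and 4.67 in mPGC-1α. Its log2 fold change was -0.031 (SE 0.18, limma adjusted p = 0.942), with all mPGC-1α arrays inside the control range. Siglech had -0.13 (SE 0.16, limma adjusted p = 0.699) and Clec5a 0.0072 (SE 0.15, limma adjusted p = 0.985). Without the third control array the log2 fold changes were -0.15 for Trem2, -0.063 for Siglech and 0.12 for Clec5a.

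Markers of several other cell types moved with the same arrays, those of neutrophils and monocytes among them. The summed signal of the 7 markers with a value on every array (of 8 listed, S100a8 and S100a9 among them), relative to the array's 75th percentile, was 81.3, 84.4 and 16.3 in PGC-1αf/f and 88.6, 91.9 and 106 in mPGC-1α. The third control array held the lowest sum, as it held the lowest Clec4e, Clec4d and Trem3, and the 7 markers that could be fitted with and without it had a median log2 fold change of 1.11 with it and 0.20 without. Without that array the log2 fold changes were 1.95 for Clec4e, 1.03 for Clec4d and 0.54 for Trem3. The summed endothelial and mural markers were also lowest on that array, at 3.44, while the highest control array was at 13.8 and mPGC-1α ran from 13.6 to 17.3. The NK cell marker sum was lowest there too, at 0.836, against 2.31 and 3.45 in other controls and 2.86 to 4.83 in mPGC-1α. Of the 10 endothelial and mural genes summed, 6 were well above background on all arrays and 2 on none. Of the 6 NK cell genes, 4 were on all arrays and 2 on none. The oligodendrocyte sum ran from 14.0 to 16.7 in PGC-1αf/f and from 9.13 to 11.8 in mPGC-1α, with 6 of 6 estimates below 0 and 4 genes lower without overlap, beside 10.8% of all genes. The part of such cells in these differences was not tested. Of the microglial markers, 11 of 11 had an estimate below 0 (median -0.27, 0 past the threshold). Fcrls, with a value on only 1 control array, is among these markers. Without PGC-1αf/f replicate 1 the median was -0.15 and 2 of 11 estimates were above 0, and without PGC-1αf/f replicate 3 it was -0.15 over 10 genes. Without mPGC-1α replicate 1 or 2, 1 estimate was above 0. Their summed signal ran from 73.5 to 86.3 in PGC-1αf/f and from 64.3 to 70.0 in mPGC-1α over the 5 with a value on every array. These include Cx3cr1, the locus that carries Cre in mPGC-1α mice alone (log2 fold change -0.51, SE 0.14, limma adjusted p = 0.194). Without it the sums over the other 4 overlapped, at 54.0 to 63.3 and 48.9 to 56.7. The border macrophage sum ran from 8.21 to 10.0 and from 8.78 to 15.6, with the highest value on mPGC-1α replicate 3, where Fcgr2b, Fcgr4, Fcer1g and Fcgrt were also highest; its part in those values was not tested.

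**Figure D5:**
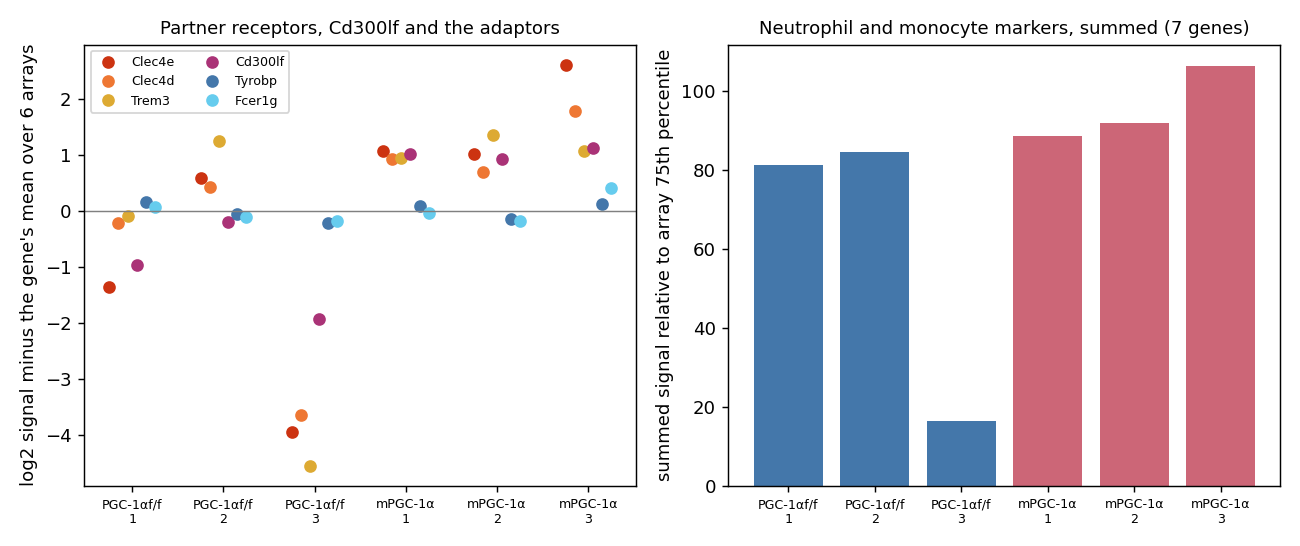
Left, log2 signal of 4 receptors and the 2 adaptors on each array, minus the gene's own mean over the 6 arrays; right, summed signal of 7 neutrophil and monocyte markers on the same arrays (bars from 0). PGC-1αf/f replicate 3 is lowest for Clec4e, Clec4d, Trem3 and Cd300lf and for the marker sum (16.3), while Tyrobp and Fcer1g span 0.37 and 0.60 over the arrays.

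The inhibitory side of the pathway had 24 listed genes, 23 of them tested, with 10 estimates above and 13 below 0 and a median of -0.053, which was 0.0047 without the third control array. Cd300lf, an ITIM receptor for lipids of dying cells, gave -0.34, 0.43 and -1.30 in PGC-1αf/f and 1.65, 1.56 and 1.76 in mPGC-1α. All mPGC-1α arrays were above all controls and close together. The difference was 2.06 (SE 0.40) on the log2 scale, or 4.18-fold with an interval of 2.17 to 8.03, and the limma adjusted p was 0.119. Without PGC-1αf/f replicate 3 it was 1.61 with a limma adjusted p of 0.0816, and the shared slide columns gave 1.99 and 1.14.

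The next highest estimates of this list were those of Lilrb4a and Pirb. They did not stand for the list, in which 13 of the 23 tested genes had an estimate below 0. Lilrb4a had a log2 fold change of 1.37 (SE 0.44, 3 control and 2 mPGC-1α arrays, limma adjusted p = 0.237), and Pirb, the paired Ig-like receptor B, had 0.79 (SE 0.27, limma adjusted p = 0.246) with groups that overlapped. Without the third control array these were 0.97 and 0.60. At the other end were Pag1, a Csk-binding adaptor (-0.70, SE 0.53, 5 arrays), Lair1, a collagen receptor (-0.54, SE 0.21, 4 arrays) and Csk, the kinase that restrains Src family members (-0.34, SE 0.15), with limma adjusted p of 0.521, 0.294 and 0.313. The estimate of Pag1 was 0.20 without mPGC-1α replicate 3, and that of Lair1 was -0.35 without PGC-1αf/f replicate 3. Each of these fits left only 1 array with a value in the reduced group. Fcgr2b, the inhibitory Fc receptor, thus had an estimate between these extremes.

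Of 34 kinases and effectors downstream of the ITAM, 33 were tested, 12 with an estimate above 0 and 21 below. The median was -0.15, -0.076 without the third control array and -0.097 without mPGC-1α replicate 1. The highest were Fgr, a myeloid Src family kinase (1.27, SE 0.50, limma adjusted p = 0.280), Vav3, a guanine nucleotide exchange factor (0.97, SE 0.42, limma adjusted p = 0.306) and Lck, a lymphocyte Src family kinase (0.76, SE 0.41, limma adjusted p = 0.379). Vav3 was well above background on only 1 of the control arrays. The lowest were Tec, a kinase of the Btk family (-0.62, SE 0.29), Pik3cb, a catalytic subunit of PI3 kinase (-0.57, SE 0.20) and Nck1, an actin-linking adaptor (-0.38, SE 0.14), with limma adjusted p of 0.333, 0.244 and 0.265. Pik3cb and Nck1 were among the 5 of 29 genes with 6 values that were lower without overlap, as 10.8% of all genes were, and 0 were higher without overlap. The third control array was the lowest for Fgr (-2.12), Vav3 (-4.28) and Lck (-3.31). Without it their log2 fold changes were 0.73, 0.52 and 0.34, and that of Tec was -0.39.

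Of 12 other Fc-binding or Fc receptor-like genes, 7 were tested, 3 with an estimate above 0 and 4 below. These counts and the median include B2m (above 0) and Fcrls (below 0), each with a value on only 1 array of a group. The median was -0.14, -0.22 without PGC-1αf/f replicate 1 and -0.039 over 6 genes without the third control array. Fcrl5 (-0.61, SE 0.22, limma adjusted p = 0.253) and Fcrl1 (-0.48, SE 0.16, limma adjusted p = 0.240), Fc receptor-like genes best known from B cells, were lower without overlap, beside 10.8% of all genes. Fcrl5 gave 2.15, 2.19 and 2.71 in PGC-1αf/f and 1.50, 1.68 and 2.04 in mPGC-1α, and Fcrl1 gave 1.51, 1.47 and 1.80 against 1.23, 1.22 and 0.90. Fcrls, a microglial Fc receptor-like gene, had a value on 1 control array (3.98) and 2 mPGC-1α arrays (3.24 and 3.90). Its log2 fold change was -0.41 and is given without a p-value. Fcrla, well above background on 2 control and 3 mPGC-1α arrays, had 0.95 (SE 0.55, limma adjusted p = 0.406) and Pigr, the polymeric Ig receptor, 0.22 (SE 0.24, limma adjusted p = 0.665). Without the third control array they were at 0.30 and -0.0046. B2m, the light chain that FcRn needs, had a value on 2 control arrays (3.56 and 3.99) and 1 mPGC-1α array (3.78). Its log2 fold change was 0.0047, also given without a p-value. Probe sequences were not used here, so probes that also bind a related receptor's transcript could not be recognised. This limit applies to Fcgr2b, Fcgr3 and Fcgr4, which are close relatives, and to Trem1 and Trem2, whose centred log2 profiles over the 6 arrays differed by a root mean square of 0.064.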

How the data were processed

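Total RNA was amplified, labelled with Cy5 and hybridized by the authors to 1-colour Agilent mouse arrays, 1 per sample. The deposited scanner files give the intensity of each spot from Feature Extraction 11.5.1.1, after background subtraction and correction of spatial trends. A deposited series-wide matrix repeats these intensity values, with arrays not yet normalized to each other. The methods name GeneSpring for normalization and no test per gene. Groups and replicate numbers came from the labels.

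Control and outlier spots were left out, and log2 intensity minus each array's 75th percentile was averaged per probe. The number of arrays, 3 per group, limits the precision. Of 56605 probes, 25333 were tested, being well above background on every array of either group or both, with limma 3.58.1 (two-sided, Benjamini-Hochberg adjustment over all tested probes, threshold 0.05) in R 4.3.3 with data.table (version 1.17.8). A gene was represented by its brightest probe with 6 values, otherwise by the tested probe with most values. Probes were named through RefSeq accessions, 33767 of them with 1 symbol. The fit was tested on simulated data.

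All 8 genes and their probes are named, and per pathway list every gene past the threshold and the 3 highest and 3 lowest log2 fold changes; for each adaptor, the 3 genes of nearest profile. Cell type markers are named only beside results. The genes, lists and rules were chosen with earlier results of these data known. Alternatives were other normalizations and filters, the deposited matrix, the replicate number or slide column as a block, array weights, trended robust eBayes, the mean over a gene's probes and leaving out arrays. Leaving out replicate 3 of both groups was chosen after seeing the data. Figures were made in Python 3.11.15 (numpy 2.4.6, pandas 2.3.3, matplotlib 3.10.9).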

Additional observations from a re-analysis of the deposited data

How the results depend on the processing

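None of the 8 genes passed the adjusted threshold in any of the 18 alternatives. The 20 probes past it became 11 under quantile normalization, 11 under a median shift, 11 under normexp with quantile normalization, 456 in the deposited matrix without normalization, 9 without a filter on dim probes, 4 with a filter requiring all 6 arrays, 754 with array weights, 138 with slide column as a random term and 2 without replicate 3 of both groups; leaving out 1 array gave 0 to 24. Pathway genes past it went from 0 to 4 in the deposited matrix. With the replicate number as a block, 0 probes passed; it changed no other call, and same-numbered arrays share only a number (correlations of their deviations 0.139, 0.127 and 0.0187). Depth in these arrays is signal over background: 10 of 10 probes of the 8 genes were well above it on all 6 arrays.

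Genes of the 8 with an estimate above 0 numbered 4 under quantile normalization, 3 under a median shift and 3 without replicate 3 of both groups, and 4 to 7 when 1 array was left out. At an unadjusted p under 0.05, leaving out 1 array gave 0 to 1 of the 8 higher and 0 to 1 lower, and without overlap 0 to 2 higher and 0 to 1 lower; normexp gave 1 lower without overlap. The following log2 fold changes changed sign, and the cause was not tested. Under quantile normalization they were -0.045 for Fcgr1, -0.096 for Fcgr3 and -0.035 for Tyrobp, and under a median shift -0.065 for Fcgr1, -0.12 for Fcgr3, -0.019 for Fcgrt and -0.071 for Tyrobp. The median shift itself moved the median of all tested probes to -0.14. Under normexp they were -0.24 for Fcgr3 and -0.13 for Fcer1g, with array weights -0.089 for Fcgr3 and -0.013 for Tyrobp, and for Fcgr3 -0.019 in the deposited matrix and -0.035 with slide column as a random term. Over the fits that left out 1 array or replicate 3 of both groups, the range was -0.051 to 0.19 for Fcgr1, -0.18 to 0.14 for Fcgr3, -0.096 to 0.26 for Fcer1g, -0.080 to 0.24 for Fcgrt, -0.075 to 0.16 for Tyrobp and -0.41 to 0.012 for Syk; in all 6 genes the end nearer to or past the opposite sign came from the fit without both.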
